A study of Bos taurus with 38 samples.

Results

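DKK3, SFRP1, LEF1 and NLK are 4 modulators of Wnt signalling, and their transcripts were followed in the oocyte and in the cumulus cells of the same cattle cumulus-oocyte complexes. They are 4 of the 27607 Ensembl gene identifiers in the count tables, chosen by their measured fold change in these libraries. DKK3, SFRP1 and LEF1 were selected on the difference in cumulus cells between 2 classes of a dye test (BCB positive and BCB negative), and NLK on the same difference in oocytes. Those differences are therefore described here without a test. The identifiers were ENSBTAG00000004275 (DKK3), ENSBTAG00000027625 (SFRP1), ENSBTAG00000006844 (LEF1) and ENSBTAG00000014825 (NLK).

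In the canonical Wnt pathway, a secreted ligand binds a Frizzled receptor and an LRP co-receptor, beta-catenin (CTNNB1) escapes degradation, and it joins DNA-binding factors of the TCF and LEF family in the nucleus. SFRP1 is a secreted decoy that binds Wnt ligands, and DKK3 is a secreted glycoprotein of the Dickkopf family whose action on the pathway varies with the cell. LEF1 is one of the nuclear partners of beta-catenin, and NLK is a serine/threonine kinase that phosphorylates TCF and LEF factors. In the ovary, beta-catenin is known to take part in the response of granulosa cells to FSH.

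The blue of the dye Brilliant cresyl blue (BCB) is cleared by glucose-6-phosphate dehydrogenase, so that growing oocytes with an active enzyme lose the blue colour (BCB negative) and oocytes that have finished growth keep it (BCB positive). Complexes with compact cumulus were aspirated from antral follicles of abattoir ovaries, stained, classed and separated, and the RNA of each oocyte and of its cumulus cells was sequenced. This gave 38 libraries from 19 complexes, 9 BCB positive and 10 BCB negative, with no other treatment. The labels do not say how many animals the complexes came from or at what stage the follicles were, so p-values measure the spread between these complexes.

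The libraries matched their labelled compartment. The summed level of the oocyte genes ZP2, ZP3 and DAZL was 2410 to 4395 across oocytes and 0.107 to 104 across cumulus libraries, and that of 12 granulosa and cumulus genes was 66.2 to 3012 across oocytes and 8740 to 33627 across cumulus libraries. Levels are counts as CPM of the library total, scaled with one set of trimmed-mean (TMM) factors over all 38 libraries. An oocyte library held 8886070 to 29810354 counts, a BCB positive cumulus library 3585944 to 10430148 and a BCB negative one 1103200 to 8013318. The share of counts on the 13 mitochondrially encoded genes ran from 0.966% to 2.86% in BCB positive and from 1.17% to 17.4% in BCB negative cumulus cells. The complex numbers fall into runs, 6 to 24 (3 BCB positive, 1 BCB negative), 65 to 74 (6 and 3) and 86 to 91 (6 BCB negative alone), so that in the third run the run and the class cannot be told apart. The labels do not say whether a run of numbers is a collection day, a library batch or neither.

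All 4 genes had higher transcript levels in oocytes than in cumulus cells. LEF1 showed the widest gap between compartments among them, with levels from 121 to 303 in the 19 oocytes and from 0 to 14.8 in the 19 cumulus libraries. DKK3 lay between 59.0 and 102 in oocytes and reached at most 42.9 in cumulus cells. Neither gene overlapped between the compartments. SFRP1 lay between 15.0 and 59.2 in oocytes and between 0 and 21.3 in cumulus cells, with 1 cumulus library above the lowest oocyte. NLK overlapped most, with 61.8 to 185 in oocytes against 45.3 to 101 in cumulus cells, and 12 cumulus libraries lay above the lowest oocyte. In the same complex, DKK3 and LEF1 were lower in the cumulus cells than in the oocyte in 19 of 19 pairs, and SFRP1 and NLK in 18 of 19. Overlap and pairs were not counted over all genes. In the fit given below, 46.5% of all genes were lower in cumulus cells at FDR under 0.01. The median level of DKK3 fell in the order BCB negative oocytes, BCB positive oocytes, BCB negative cumulus cells, BCB positive cumulus cells, and only the 2 groups of oocytes overlapped in their ranges among neighbours in that order. SFRP1 followed the same order with every pair of neighbours overlapping. For LEF1 the oocyte groups overlapped with each other and the cumulus groups with each other, with a gap between the compartments. For NLK every pair of neighbours overlapped, in the order BCB negative oocytes, BCB positive oocytes, BCB positive cumulus cells, BCB negative cumulus cells. Transcript levels of different genes are not ranked against each other here, since gene lengths were not used.

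**Figure D1:**
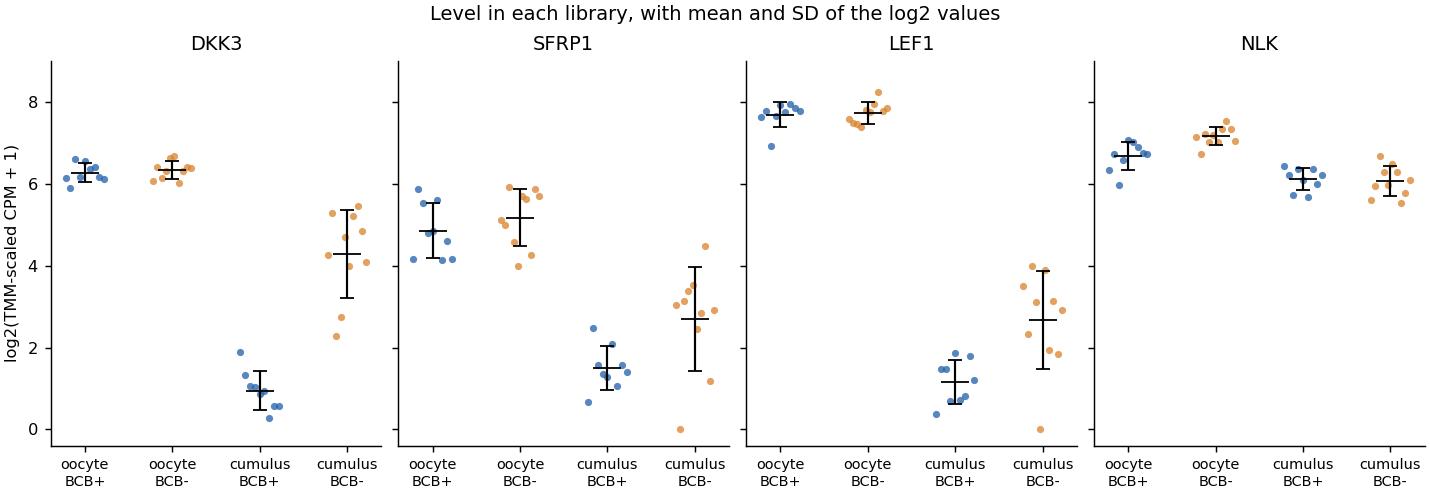
Level of DKK3, SFRP1, LEF1 and NLK in each of 38 libraries, as log2(TMM-scaled CPM + 1), in oocytes and cumulus cells of BCB positive (blue, n = 9) and BCB negative (orange, n = 10) complexes. Black bars give the mean and SD of the log2 values. DKK3 in cumulus cells ran from 0.214 to 2.72 CPM in BCB positive and from 3.89 to 42.9 CPM in BCB negative complexes, while both classes of oocytes lay at 59.0 CPM or above.

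All 4 differences between compartments fell under an FDR of 0.01, as did those of most genes. In a quasi-likelihood fit (edgeR) over 14785 genes, transcripts of LEF1 were 69.7-fold lower in cumulus cells than in oocytes (log2 fold change -6.12, SE 0.24, FDR 6.82e-25). DKK3 was 16.7-fold lower (-4.06, SE 0.21, FDR 2.97e-21), SFRP1 8.76-fold lower (-3.13, SE 0.28, FDR 2.31e-13) and NLK 1.78-fold lower (-0.83, SE 0.10, FDR 6.72e-10). At FDR under 0.01 this contrast called 13127 of the 14785 genes (88.8%), with 42.3% of all genes higher and 46.5% lower in cumulus cells, so that most genes passed it, in either direction. The values that chose the 4 genes by their BCB difference also enter this contrast, which weights both classes equally. Its FDR values for the 4 genes therefore cannot be taken as independent of that choice, and their folds serve as a description. The median gene had a log2 fold change of -0.15. Scaling by library totals alone moved that median to -0.56 and NLK to -1.25.

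Within each BCB class the compartment difference is given as a description, with no test, since the levels of each class entered the choice of the genes. In BCB positive complexes, DKK3 was 82.3-fold lower in cumulus cells than in oocytes, LEF1 156-fold, SFRP1 15.5-fold and NLK 1.50-fold. In BCB negative complexes the same folds were 3.37 for DKK3, 31.3 for LEF1, 4.94 for SFRP1 and 2.12 for NLK. The gap was narrower in BCB negative complexes for DKK3, SFRP1 and LEF1 and wider for NLK. That change in the gap is the BCB contrast that chose the genes seen from the other side, and it was not tested.

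**Figure D2:**
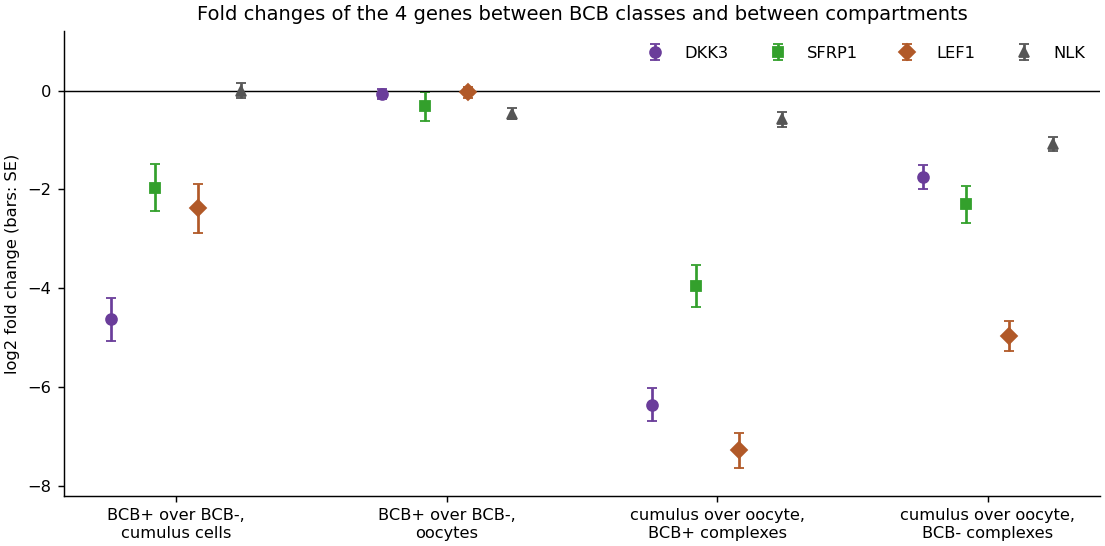
Log2 fold change with its standard error for DKK3, SFRP1, LEF1 and NLK, from left to right between BCB classes in cumulus cells and in oocytes, and between compartments in BCB positive and BCB negative complexes. In cumulus cells DKK3 stood at -4.63 and NLK at 0.00, and in oocytes DKK3, SFRP1 and LEF1 lay between -0.32 and -0.03.

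In TMM-scaled levels, DKK3 did not overlap between the classes of cumulus cells. In the 9 BCB positive cumulus libraries its level was 0.214 at the lowest, 0.905 at the median and 2.72 at the highest, on 2 to 10 counts a library. In the 10 BCB negative libraries it was 3.89 at the lowest, 21.6 at the median and 42.9 at the highest, on 3 to 336 counts. No BCB negative library reached down to the highest BCB positive one. By CPM without TMM factors the nearest libraries stood at 2.72 in BCB negative complex 68 (3 counts) and 2.51 in BCB positive complex 17 (9 counts). The share of all genes without overlap between the classes was not counted. The log2 fold change of BCB positive over BCB negative was -4.63 (SE 0.43), a 24.7-fold lower abundance, and it held rank 3 from the lowest fold among 12313 genes, of which 69 (0.560%) were called at FDR under 0.01 with 5 higher and 64 lower in BCB positive. Since this contrast chose the gene, nothing is read from that share. In bulk cumulus, fewer cells that carry a transcript and less of it in each cell cannot be told apart.

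SFRP1 and LEF1 were lower in BCB positive cumulus cells too, with overlap. SFRP1 was 0.603, 1.62 and 4.57 at the lowest, median and highest BCB positive library and 0, 6.86 and 21.3 in the BCB negative ones. For this Wnt decoy 7 of 10 BCB negative libraries lay above every BCB positive one, and the log2 fold change was -1.96 (SE 0.47). Fewer lay above by CPM without TMM factors, where complexes 68 (4.53) and 91 (4.16) fell below BCB positive complex 19 (4.76). LEF1 was 0.302, 1.30 and 2.64 at the lowest, median and highest BCB positive library and 0, 7.07 and 14.8 in the BCB negative ones. Here 8 of 10 BCB negative libraries lay above every BCB positive one, and the log2 fold change was -2.38 (SE 0.50). Without TMM factors fewer did, with complexes 65 (2.42 CPM) and 88 (2.64 CPM) below BCB positive complex 70 (2.85 CPM). Such libraries were not counted for other genes.

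These were low counts. LEF1 in cumulus cells rested on 0 to 61 counts a library and SFRP1 on 0 to 167. DKK3 rested on 2 to 10 counts in a BCB positive library, 56 in all, and on 3 in BCB negative complex 68. The lowest values of SFRP1 and LEF1 each came from a single BCB negative library. SFRP1 had 0 counts in complex 65 (which allows up to 1.82 CPM of the library total) and LEF1 had 0 counts in complex 86 (up to 1.28 CPM). Such limits cover counting error only. The filter of a CPM over 2 in at least 9 of 19 libraries was met mostly by the BCB negative class, by 10 BCB negative and 1 BCB positive libraries for DKK3, 8 and 3 for SFRP1 and 9 and 2 for LEF1, so these genes passed it mainly through the class where they were higher.

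NLK did not share the pattern of the other three in cumulus cells. Its level was 50.4, 73.1 and 85.1 at the lowest, median and highest BCB positive cumulus library and 45.3, 64.6 and 101 in the BCB negative ones, with a log2 fold change of 0.00 (SE 0.16). Under scaling by library totals alone, which moved the median of all cumulus genes from -0.01 to 0.46, the value of NLK was 0.49, about the same distance from that median.

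The high BCB negative values did not come from the same complexes for each gene. DKK3 was highest in complex 89 (42.9), complex 65 (38.2) and complex 88 (36.1). SFRP1 was highest in complex 89 (21.3), complex 86 (10.6) and complex 68 (9.48). LEF1 was highest in complex 66 (14.8), complex 87 (13.8) and complex 6 (10.4). Complex 65, high for DKK3, had no SFRP1 count, complex 86, high for SFRP1, had no LEF1 count, and complex 66, highest for LEF1, had the lowest DKK3 of its class. Within the BCB negative class, Pearson's r between log2 levels was -0.24 for DKK3 and SFRP1 (Spearman's rho -0.14, permutation p = 0.515 and 0.704), -0.50 for DKK3 and LEF1 (rho -0.53, p = 0.143 and 0.123) and 0.12 for SFRP1 and LEF1 (rho 0.18, p = 0.736 and 0.633). Adjusted over 20 relations each of these p-values was 0.445 or more, and without the 2 libraries farthest from the median r was -0.087, -0.34 and -0.21.

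**Figure D3:**
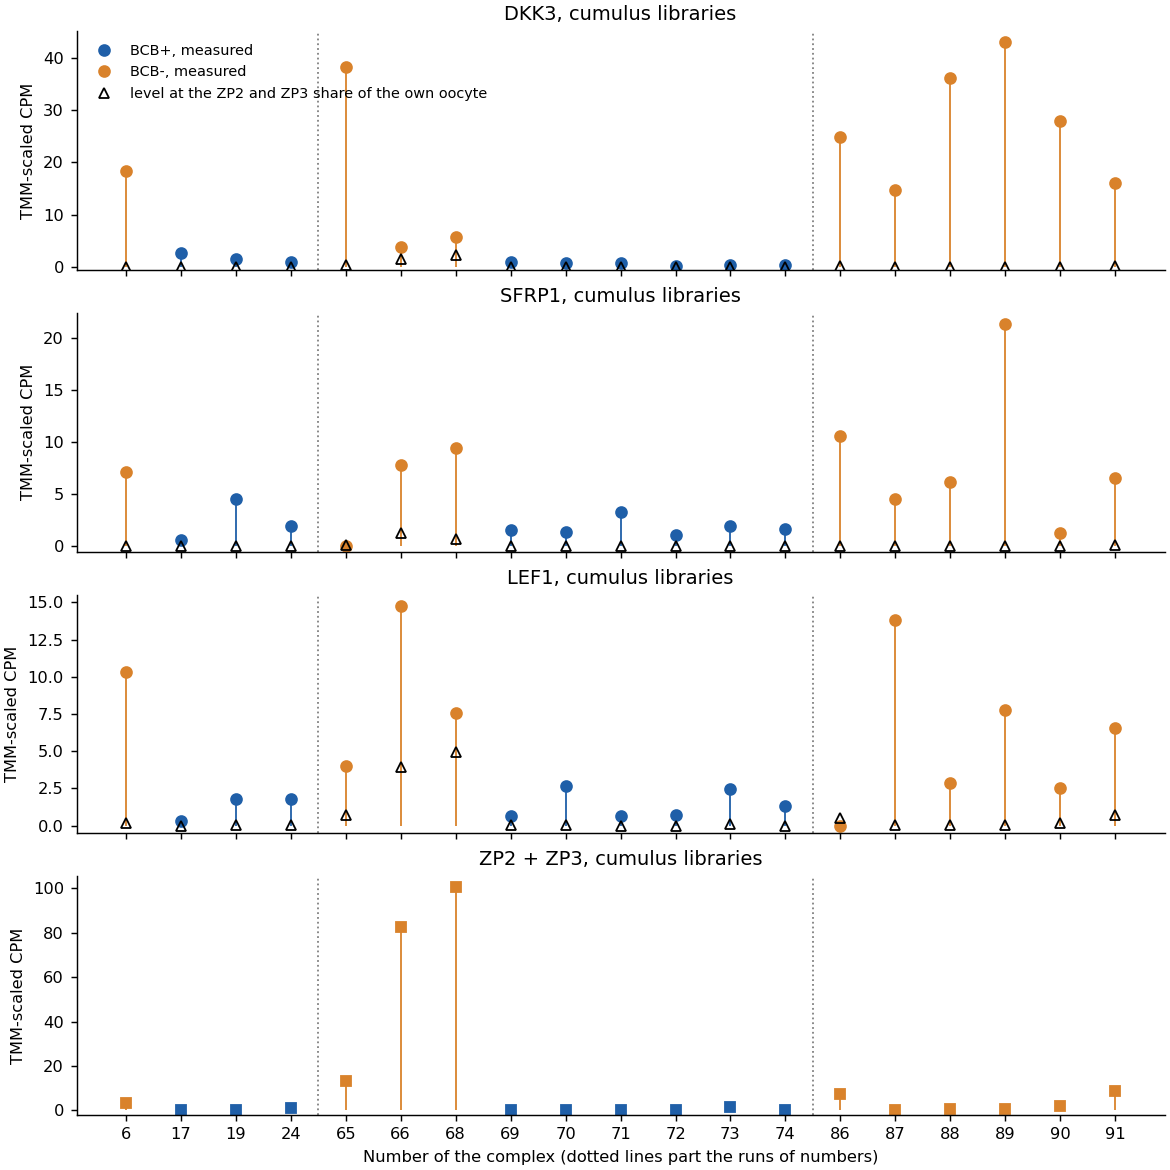
TMM-scaled CPM of DKK3, SFRP1 and LEF1 in the cumulus cells of each complex in order of its number, and the summed level of ZP2 and ZP3 in the lowest panel, for BCB positive (blue) and BCB negative (orange) complexes. Open triangles give the level that the gene would have if the library held its own oocyte's RNA in the share that ZP2 and ZP3 show. ZP2 and ZP3 were highest in complexes 66 and 68, where DKK3 was lowest in its class (3.89 and 5.69) but LEF1 stood at 14.8, its highest value, and 7.58, and SFRP1 at 7.78 and 9.48. They were low in complex 89, where DKK3 and SFRP1 were highest.

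Because all 3 genes were higher in oocytes, oocyte transcripts counted in cumulus libraries were measured beside them. ZP2 and ZP3, which encode proteins of the zona pellucida, summed to 0 at the lowest and 1.47 at the highest in BCB positive cumulus libraries and to 0.322, 5.32 and 100 at the lowest, median and highest in BCB negative ones. They were highest in complex 68 at 2.94% and complex 66 at 2.23% of the level in their own oocytes, and at 0.413% or less elsewhere. At those shares of the own oocyte, DKK3 would stand at 0.151 in the median BCB negative cumulus library and at most at 2.31, against a measured median of 21.6. LEF1 would stand at 0.363 in the median library and at 4.94 in complex 68, where 7.58 was measured. SFRP1 would stand at 0.0431 in the median library and at most at 1.32. With the level at the ZP share taken off, DKK3 was 2.32 in the lowest BCB negative and 2.72 in the highest BCB positive library, an overlap. The measured level was above the level at the ZP share in 10 of 10 BCB negative libraries for DKK3 and in 9 of 10 for SFRP1 and LEF1. These levels hold only if oocyte transcripts enter a cumulus library in the proportions of the whole oocyte, and the part of oocyte RNA in the difference between the classes was not tested.

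DAZL, a germ cell RNA-binding protein whose transcript was sparse, gave a larger share than ZP2 and ZP3 in 15 of 19 complexes and a smaller one in 4 (complexes 65, 66, 72 and 74), with 1.92% against 2.23% in complex 66. By the DAZL share, DKK3 would stand at 1.16 in the median BCB negative library and LEF1 at 2.95, and the measured level was higher in 10 of 10 libraries for DKK3, 9 of 10 for SFRP1 and 7 of 10 for LEF1. In BCB positive libraries it was higher in 6 of 9 for DKK3, 8 of 9 for SFRP1 and 4 of 9 for LEF1, so that the level at the DAZL share reached or passed the measured one in the rest. For DKK3 the widest case was complex 71, measured at 0.905 against 13.3 at the DAZL share. Without complexes 66 and 68 the log2 fold changes were -4.87 for DKK3, -1.95 for SFRP1 and -2.19 for LEF1, while the number of genes called fell from 69 to 10. Without complex 6, whose cumulus cells had the lowest level of the granulosa gene INHA (384), they were -4.67, -1.98 and -2.31, with 33 genes called. Complex 89 had a DAZL share of 4.73%, INHA at 923 (class median 3350) and 167 of the 262 BCB negative SFRP1 counts. Without it the values were -4.47 for DKK3, -1.55 for SFRP1 and -2.36 for LEF1.

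Markers of other cell types were measured beside the 3 genes. COL1A2, a collagen gene and the one theca and stroma marker with an identifier, ran from 0 to 0.905 in BCB positive and from 0.239 to 39.8 in BCB negative cumulus libraries, and from 4.12 to 15.3 in oocytes. The endothelial genes VWF and TEK summed to between 1.09 and 5.84 in the former and between 1.53 and 55.0 in the latter, and to between 80.0 and 146 in oocytes. Between the classes of cumulus cells VWF had a log2 fold change of -0.77 (SE 0.66, edgeR FDR 0.553), which did not pass, and COL1A2 and TEK were under the filter on low counts. None of 6 leukocyte markers had an identifier. The part of these cells in the DKK3, SFRP1 and LEF1 levels was not tested.

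Depth and mitochondrial share also differed between the classes, so their relation with the 4 genes was taken within a class. Of 16 relations none passed adjustment, and the lowest adjusted permutation p was 0.677. That relation was DKK3 with the log10 library total among the 10 BCB negative complexes (r = 0.65, permutation p = 0.0423; rho = 0.64, p = 0.0546), where the deeper libraries had more DKK3, and r was 0.53 without the 2 libraries farthest from the median. With the log10 total as a covariate the log2 fold change of DKK3 was -4.94, of SFRP1 -2.19 and of LEF1 -2.12, and 2 genes were called in all.

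The second run of complex numbers held both classes and allowed the comparison within a run. Its 3 BCB negative cumulus libraries (complexes 65, 66 and 68) had DKK3 levels of 38.2, 3.89 and 5.69, against 0.214 to 1.04 in the 6 BCB positive ones. LEF1 was 4.02, 14.8 and 7.58 in the former and 0.626 to 2.64 in the latter. SFRP1 was 0, 7.78 and 9.48 against 1.07 to 3.26. In TMM-scaled levels DKK3 and LEF1 did not overlap within that run and SFRP1 did, through complex 65. By CPM without TMM factors LEF1 overlapped too, at 2.42 in complex 65 against 2.85 in BCB positive complex 70. LEF1 rested on 4 counts in each of complexes 65 and 68, and DKK3 on 5 in complex 66 and 3 in complex 68. The log2 fold changes within it were -4.59 for DKK3, -2.79 for LEF1 and -1.64 for SFRP1.

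Within a class, levels were also compared between runs, in 16 exact permutation tests whose smallest possible p was 0.0119. None passed 0.05 after adjustment, which a lone difference could not do, since at the smallest p it adjusts to 0.190. DKK3 in BCB positive cumulus cells was lower in the second run than in the first by 0.72 on the log2 scale (exact p = 0.0119, adjusted 0.0952), and LEF1 in BCB negative oocytes was higher in the third run than in the second by 0.45 (exact p = 0.0119, adjusted 0.0952). NLK in BCB positive oocytes was higher in the second run than in the first by 0.50 (exact p = 0.0238, adjusted 0.127).

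In oocytes, DKK3, SFRP1 and LEF1 showed no detectable difference between the BCB classes. DKK3 was 59.0, 71.5 and 96.7 at the lowest, median and highest BCB positive oocyte and 63.4, 80.6 and 102 in the BCB negative ones (log2 fold change -0.08, SE 0.10, FDR 0.944). LEF1 was 121, 218 and 245 in the former and 168, 217 and 303 in the latter (-0.03, SE 0.11, FDR 0.980). SFRP1 was 16.5, 26.8 and 57.3 in the former and 15.0, 41.2 and 59.2 in the latter (-0.32, SE 0.30, FDR 0.925). Over 8 settings this SFRP1 value ran from -0.60 (second run alone) to -0.11 (without complexes 72, 74 and 88). The ranges of the classes overlapped for each over all runs. Within the second run LEF1 did not overlap and went the other way, at 200 to 245 in BCB positive and 168 to 177 in BCB negative oocytes. The log2 fold change there was 0.26 (SE 0.09, edgeR FDR 0.135), which did not pass. The fit (edgeR quasi-likelihood) called 0 of 12753 oocyte genes (0.00%), with 711 at an unadjusted p under 0.05, and DESeq2 called 1.

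NLK in oocytes was lower in the BCB positive class, the contrast for which it was picked. Its level was 61.8, 106 and 135 at the lowest, median and highest BCB positive oocyte, on 937 counts or more. In BCB negative oocytes it was 106, 143 and 185. Of the 10 BCB negative oocytes 6 lay above every BCB positive one, and 4 of the 9 BCB positive oocytes lay below every BCB negative one. The log2 fold change was -0.47 (SE 0.12), a 1.38-fold difference, at rank 247 from the lowest fold among 12753 genes. It was smaller within the second run, where BCB positive oocytes ran from 95.2 to 135 and the 3 BCB negative ones stood at 106, 147 and 130 (log2 fold change -0.26). Cumulus RNA in oocyte libraries, read from INHA and FSHR, reached 9.45% of the own cumulus level in complex 72, and at that share it would bring an NLK level of 7.63 of the 118 measured there. Without complexes 72, 74 and 88, the oocytes with the most INHA, the log2 fold change was -0.47. The part of cumulus RNA in the NLK difference between the classes was not tested.

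SFRP1 varied more between oocytes of one class than most genes of its abundance. Its SD within classes was 0.69 on the log2 scale, and of 4266 oocyte genes with a mean level within a factor of 2 of it, 134 (3.14%) had a larger SD and the median SD was 0.29. The SD was 0.22 for DKK3, 0.28 for LEF1 and 0.29 for NLK, and 66.1%, 30.2% and 32.3% of the genes of like level had larger ones. Low and high oocytes for SFRP1 occurred in both classes. The 5 lowest, between 15.0 and 18.1, were in complexes 86, 72, 74, 17 and 89, and the 5 highest, between 50.9 and 59.2, in complexes 87, 91, 19, 90 and 66. Each of the 19 values rested on 173 counts or more.

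For SFRP1 in BCB positive complexes, the relation between the level in the oocyte and in its own cumulus cells passed adjustment by Pearson's r and not by Spearman's rho. Pearson's r over the 9 complexes was 0.85 (exact permutation p = 0.00138, adjusted over 20 relations 0.0277) and Spearman's rho was 0.77 (exact permutation p = 0.0214, adjusted 0.214). With the 2 oocytes farthest from the median left out, r was 0.63. In the 10 BCB negative complexes r was -0.41 (permutation p = 0.246; rho = -0.52, p = 0.133), and the difference between the classes was not tested. None of the other relations passed adjustment. The nearest by r was DKK3 against NLK in BCB negative cumulus cells, where libraries high in DKK3 were low in NLK (r = -0.69, permutation p = 0.0276, adjusted 0.276; rho = -0.76, adjusted 0.214), with an r of -0.39 without the 2 libraries farthest from the median. For LEF1 in BCB positive complexes r was 0.00 over all 9 (exact permutation p = 0.995) and 0.94 without the 2 oocytes farthest from the median, of which complex 24 had the lowest LEF1 of all oocytes.

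**Figure D4:**
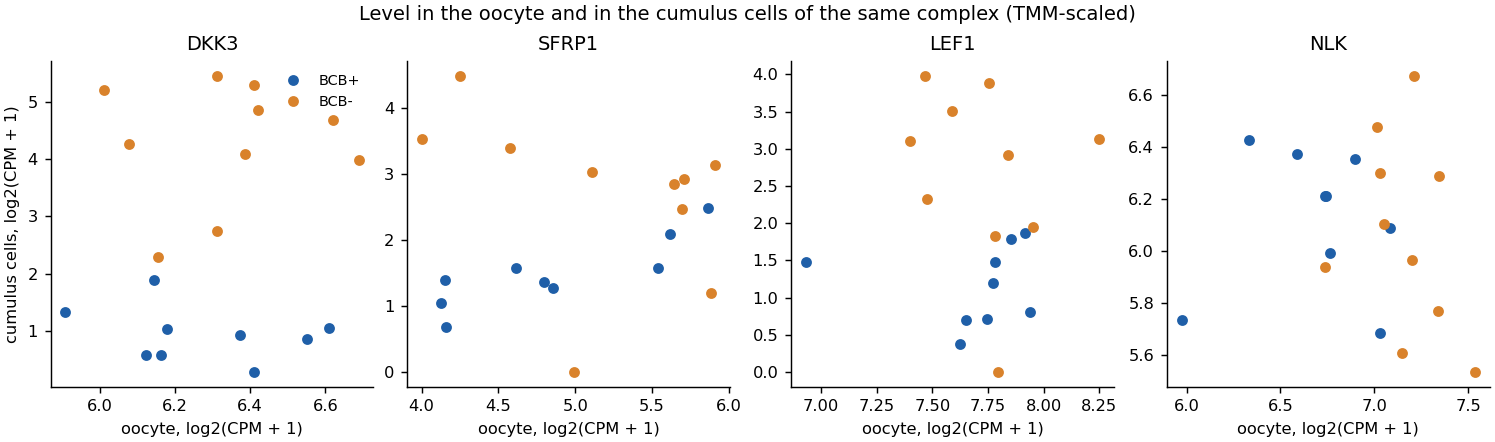
Level in the oocyte (horizontal axis) and in the cumulus cells (vertical axis) of the same complex, as log2(TMM-scaled CPM + 1), with separate axes for each gene, for 9 BCB positive (blue) and 10 BCB negative (orange) complexes. For SFRP1 the blue points rise together (r = 0.85) and the orange points do not (r = -0.41).

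The genes most like each member were named by Pearson's r of log2 levels, taken as deviations from the class means, over the 19 libraries of the compartment in which it was picked, among genes with a symbol. For DKK3 in cumulus cells these were ASB7 (0.90), MVB12A (0.79), FAIM (0.76), MTG2 (0.75) and SDF4 (0.75). For SFRP1 they were PRKCE (0.84), NUDT6 (0.82), GTPBP3 (0.81), ACAP3 (0.81) and HPS1 (0.80). For LEF1 they were lower, from ZNF205 (0.69) and PLCXD2 (0.67) to AHCYL2, PIAS2 and ILKAP (0.66 each). For NLK in oocytes they were BIRC6 (0.91), FKBP5, PAN3 (0.90 each), TASOR2 and FAM117B (0.89 each). The libraries differ in depth, which may enter these coefficients, and no test was made of them.

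The rest of the pathway was taken from lists of 111 genes, of which 30 could be matched to an identifier. The names come from tables of genes ranked in this study, so the 30 are not an even sample of the pathway. Of them, 11 (36.7%) were higher and 12 (40.0%) lower in cumulus cells than in oocytes (FDR under 0.01), against 42.3% and 46.5% of all genes, and 7 did not pass, at a median log2 fold change of -0.01 against -0.15 over all genes. By library totals alone 10 of the 30 were higher and 15 lower, against 36.6% and 51.9% of all genes. These shares lay near those of all genes, and nothing is read from them about the pathway. Of the 30, 5 met the filter on low counts in one compartment alone, WNT7A, WNT9A, NOTUM and TCF7L1 in oocytes and APCDD1 in cumulus cells. Such genes had to differ, so they are described by their levels, and of the other 25 genes 10 were higher and 8 lower.

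Of 19 ligands listed, 2 had an identifier, too few to describe ligands as a group. WNT7A had a level of 26.8 to 47.6 in BCB positive and 25.5 to 39.8 in BCB negative oocytes and no count in 18 of 19 cumulus libraries, so that its fitted fold is no measure of size. WNT9A had levels of 1.08 to 5.61 in oocytes and at most 1.72 in cumulus cells, where the 10 BCB negative libraries held 1 count in all, so that its fitted fold is no measure of size either. PORCN, the acyltransferase that lipidates Wnt ligands before secretion, was higher in cumulus cells (1.34, SE 0.16).

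Of the 5 receptors with an identifier, 4 were higher in cumulus cells, where 42.3% of all genes were, and 5 genes are too few to describe the receptors as a group. ROR2, a tyrosine kinase receptor for Wnt ligands, had a log2 fold change of 5.93 (SE 0.43), the co-receptor LRP5 4.12 (SE 0.22) and the Frizzled receptor FZD1 1.91 (SE 0.22). RYK also passed (0.87, SE 0.10), and FZD6 did not (0.03, SE 0.22, and -0.40 by library totals alone). ZNRF3, a ligase that removes Frizzled receptors from the surface, was higher in cumulus cells (1.23, SE 0.19).

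Of 15 other antagonists listed, 3 had an identifier. KREMEN1, a receptor for Dickkopf proteins, was lower in cumulus cells (-2.46, SE 0.22), as 46.5% of all genes were. NOTUM, which strips the lipid from Wnt ligands, had levels of 2.74 to 13.2 in oocytes and 0 to 1.82 in cumulus cells, where the 10 BCB negative libraries held 11 counts in all. APCDD1, a membrane inhibitor, had levels of 1.59 to 34.0 in cumulus cells and 0.144 to 3.99 in oocytes. DKK1, DKK2, DKK4, DKKL1, SFRP2, SFRP4, SFRP5 and FRZB, relatives of DKK3 and SFRP1, were not among the genes with a symbol and are not analysed here.

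In the cytoplasm 6 of 9 genes were lower in cumulus cells, where 46.5% of all genes were, led by the scaffold DVL2 (-2.19, SE 0.11), the ubiquitin ligase subunit BTRC (-2.15, SE 0.10) and the kinase GSK3A (-1.29, SE 0.10). CTNNB1 itself was higher (0.67, SE 0.08, FDR 1.32e-09), with a level of 555 to 1210 in BCB positive cumulus cells and 416 to 603 in BCB positive oocytes, but by library totals alone its log2 fold change was 0.25 (FDR 0.0132) and no longer passed.

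In the nucleus the sister factor of LEF1, TCF7L1, had a level of 6.06 to 23.4 in oocytes and at most 9.48 in cumulus cells, where a library held 0 to 14 counts. The corepressors TLE3 (3.33, SE 0.23) and TLE2 (3.27, SE 0.18) and the coactivator BCL9 (1.78, SE 0.15) were higher. Among the partners of NLK, TAB1, which binds its upstream kinase, was lower in cumulus cells (-1.28, SE 0.09), and TAB2 (0.17, SE 0.11) and FOXO1 (-0.05, SE 0.11) did not pass. The direction of each named gene that passed was the same under all 3 scalings tried.

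**Figure D5:**
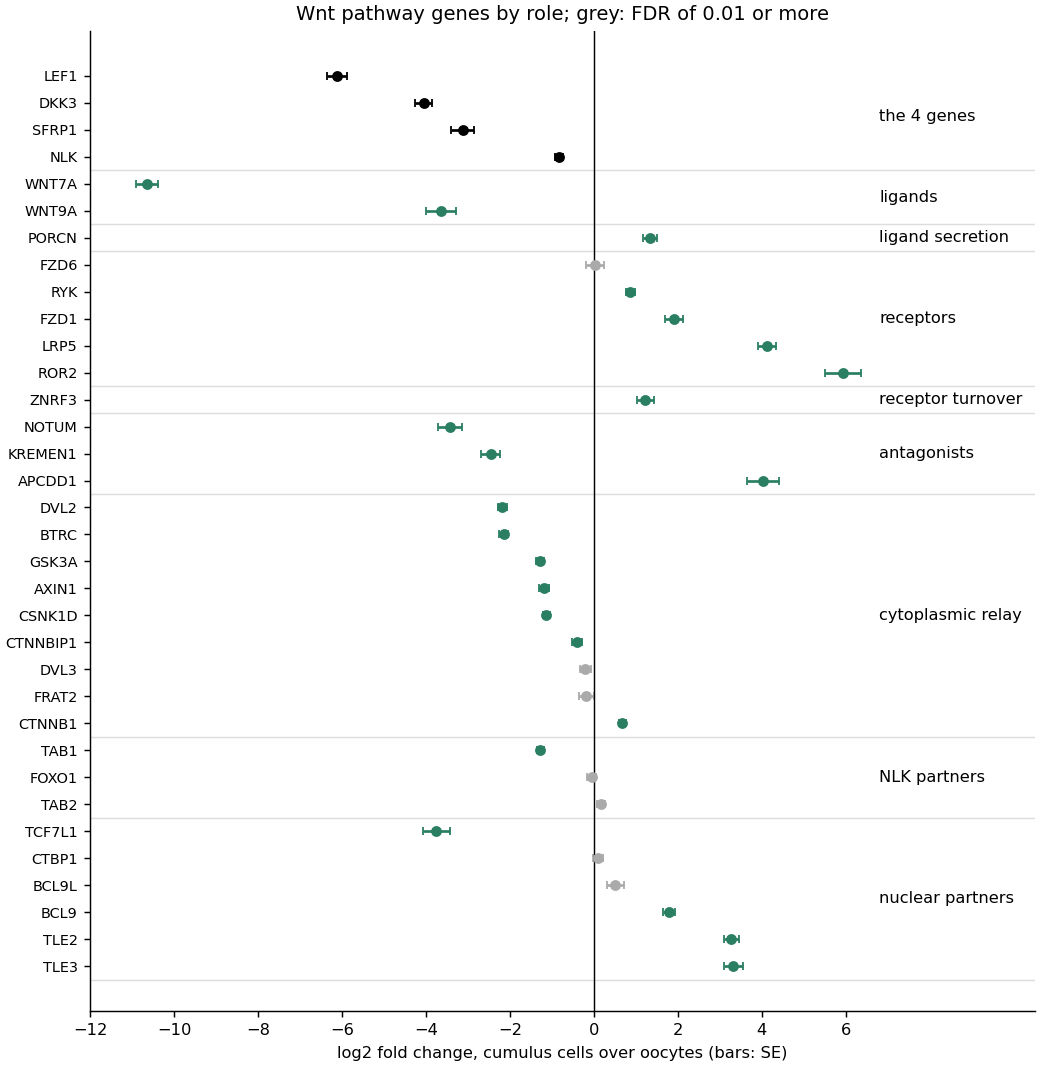
Log2 fold change of cumulus cells over oocytes with its standard error for DKK3, SFRP1, LEF1 and NLK (black) and for the 30 other Wnt pathway genes, ordered by role. Green points passed FDR 0.01 and grey points did not. WNT7A lay farthest to the oocyte side and ROR2 farthest to the cumulus side (5.93), and the fitted value of WNT7A rests on 1 count in all cumulus libraries and that of WNT9A on 1 count in the BCB negative ones.

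Between the BCB classes, 26 of the 111 listed genes were tested in cumulus cells and 29 in oocytes. In cumulus cells 0 of 26 genes passed by edgeR's quasi-likelihood test, which called 0.560% of all genes, and 0 by DESeq2. An unadjusted p under 0.05 was found for 6 of the 26, against 2300 of 12313 genes (18.7%), and the median log2 fold change was 0.28 against -0.01 over all genes. The lowest FDR was that of BCL9 (log2 fold change 0.52, SE 0.16, FDR 0.0723), higher in BCB positive. By library totals alone 10 of the 26 were called, where that scaling called 1732 of 12313 genes (14.1%) and moved the median of all genes to 0.46. The ligands WNT7A and WNT9A were under the filter on low counts in cumulus cells. WNT9A had 1 to 19 counts in each of the 9 BCB positive cumulus libraries, and 1 count in 1 of the 10 BCB negative ones and 0 in the other 9, which was not tested. In oocytes 0 of 29 passed by edgeR and 3 had an unadjusted p under 0.05, against 711 of 12753 genes (5.58%), at a median of 0.03.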

How the data were processed

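RNA of 19 oocytes and of their cumulus cells was analysed (38 libraries), grouped by compartment and BCB class as the sample labels give them. Per the methods and the submitters' processing notes, the authors made cDNA with an oligo-dT primer and template switching, aligned trimmed paired-end reads to ARS-UCD1.2 with HISAT2 2.1.0, removed low quality alignments and duplicates, and counted reads per Ensembl gene with featureCounts 1.6.0. Use of strand is not given in the sources used here. The deposited values are raw counts on 27607 identifiers, not normalized. The authors' symbols pair with 4934 identifiers, and coordinates, gene lengths and sequences were not used here.

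Genes with a CPM over 2 in at least 9 of 19 libraries of a compartment were fitted with edgeR 4.0.16 in R 4.3.3 (TMM, robust quasi-likelihood test, FDR 0.01), with the BCB classes compared inside each compartment (12313 genes in cumulus cells, 12753 in oocytes), and cumulus against oocyte over all 38 libraries (14785 genes kept in either). A standard error is the log2 fold change divided by the root of the F statistic. Fold changes between classes use TMM factors of one compartment, printed levels those of all libraries. On a log scale 1 was added to levels. Means of log2 levels were compared between runs with exact permutation tests. Relations were tested by all 362880 permutations at 9 complexes and 100000 at 10. Both were two-sided, with Benjamini-Hochberg adjustment over each family (Python 3.11.15, numpy 2.4.6, pandas 2.3.3, scipy 1.17.1, matplotlib 3.10.9). The fits were tested on simulated counts.

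The 4 genes, the Wnt lists and the markers were chosen with earlier results of these data known. Named genes are the 4, their paralogues and NLK partners, up to 3 genes of each list in each direction with the largest compartment difference, and the 5 genes most like each of the 4, with RYK, FZD6, FOXO1 and, in the class contrast, BCL9 and WNT9A named after their values were seen. Oocyte and cumulus libraries of one complex are paired by the complex number in the labels. Their deviations from the group means correlated by -0.03 to 0.17 (median 0.07), over 0.1 in 7 of 19 pairs. Alternatives were DESeq2 1.42.0, its size factors, library totals alone, a likelihood-ratio test without TMM, other filters, covariates for run and log10 total, the second run alone, a replicate block by complex, an FDR of 0.05, no mitochondrial genes and each complex left out in turn. Leaving out complexes 66 and 68, complex 6, or complexes 72, 74 and 88 was chosen after seeing the data. Low counts in the smaller cumulus libraries are measured with less precision.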

Additional observations from a re-analysis of the deposited data

Results flagged for a closer look

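LEF1 in the BCB positive oocyte of complex 24 had a level of 121, the lowest of all 19 oocytes, while the other BCB positive oocytes lay between 196 and 245. Its gap to the nearest of the 9, as a share of their range, was above Dixon's 95% critical value. It was the only such value in 16 groups tested, and chance flags about 1 in 20 groups. Without that oocyte the log2 fold change of LEF1 between the classes was 0.04 in place of -0.03.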

How the results depend on the processing

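Each of the 4 genes kept its direction and its side of the threshold between compartments in the 5 settings run for it (as reported, the replicate block, DESeq2, its size factors and library totals alone) and with each complex left out. Over the 5 settings the fold change ran from -4.43 to -3.82 for DKK3, -3.50 to -3.13 for SFRP1, -6.50 to -6.12 for LEF1 and -1.25 to -0.83 for NLK. The replicate block by complex gave -3.82, -3.29, -6.22 and -0.85, with 13014 genes called in place of 13127, and changed no call on the 4 genes. In cumulus cells the fold change between classes ran from -4.94 to -4.21 for DKK3, -2.19 to -1.56 for SFRP1 and -2.84 to -1.91 for LEF1, and NLK in oocytes from -0.47 to -0.26. With each complex left out, DKK3 ran from -4.87 to -4.47, SFRP1 from -2.18 to -1.55 and LEF1 from -2.60 to -2.18.

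The number of cumulus genes called between the classes moved most. Against 69, it was 365 by DESeq2, 2516 by the likelihood-ratio test without TMM, 1732 by library totals alone, 164 without a filter, 115 with run and 2 with log10 total as covariate, 360 at FDR 0.05, 10 without complexes 66 and 68 and 33 without complex 6. By library totals alone, 10 Wnt list genes were called in place of 0 and NLK stood at 0.49, where the median of all genes moved to 0.46. DESeq2 called 1 oocyte gene in place of 0. The cause of the other moves was not tested. LEF1 in oocytes, which was near 0, turned to 0.16 with run and 0.015 with log10 total as covariate and to 0.26 in the second run alone, and ran from -0.060 to 0.043 with each complex left out, turning to 0.043 without complex 24 and 0.022 without complex 89. None of these passed the test. Depth limits DKK3, SFRP1 and LEF1 in cumulus cells, where libraries held 2, 0 and 0 counts at the lowest.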
